A study of Mus musculus with 12 samples.

Results

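The 10 genes described here flank Esrp1 on mouse chromosome 4, the chromosome that carries the gene deleted in the study. They are Plekhf2, Ints8 and Dpy19l4 on the side of lower coordinates, and Rad54b, Gem, Cdh17, Pdp1, Tmem67, Runx1t1 and Calb1 on the other. They were taken by name from the 22869 gene symbols of the deposited table, and a gene with several transcript rows was represented by the row with the most reads. All 10 were found, and all 10 had enough reads to be among the 14717 genes tested. The question put to them was whether neighbours of a deleted gene shift in the knockout.

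RNA was measured in epithelium of the cochlea, the hearing organ of the inner ear, from C57BL/6 mouse embryos at embryonic day 16.5. The knockout group comprised 3 Esrp1-/- embryos and the control group 3 wild-type embryos (Esrp1+/+), with both cochleae of an embryo pooled, 2 sequencing samples listed per embryo and 1 column of reads per embryo in the table. Per the labels, the whole epithelium was dissected by hand and surrounding mesenchyme was removed with collagenase. The part of Esrp1 that the null allele removes is not given in the sources used here, and the labels name no engineered allele in the control embryos.

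ESRP1 is an RNA-binding protein of epithelial cells that sets which exons are joined. Deleting a gene can in principle alter its neighbours, because enhancers, insulators and antisense transcripts of one gene may lie in the DNA of another. The genes around Esrp1 have unrelated jobs, from RNA processing and DNA repair to cilia and calcium buffering, so they share a position and no common pathway.

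Between 12547301 and 18473139 reads per knockout embryo and between 16411205 and 21568517 reads per control embryo fell on genes. Levels are given as TMM-scaled CPM, read counts divided by library size after edgeR's correction for composition, with mean ± SD of 3 embryos. Tests are edgeR's quasi-likelihood test of knockout over control, adjusted by Benjamini-Hochberg over all genes tested, with a threshold of 0.05, and intervals are 95% intervals of the log2 fold change. The threshold was passed by 22 genes, 0.149% of those tested. The Y-linked gene Kdm5d stood at 58.4 CPM in knockout 2 and 57.4 CPM in knockout 3 but below 1 CPM in knockout 1 and in each control, and Xist, the RNA of the inactive X, was at 1098 CPM in knockout 1, under 1 CPM in knockouts 2 and 3, and at 1313 to 1808 CPM in controls. The summed level of 10 immediate early genes was 489 CPM in knockout 1 and 203 to 210 CPM in the other knockouts, against 1172 CPM in control 1 and 216 to 246 CPM in the other controls. Y-linked RNA was thus present in part of the knockout group alone. The immediate early sum was high in the embryo numbered 1 of each group. The part of either in the results below was not tested beyond the fits named there. Only knockouts 2 and 3 had Xist under 1 CPM. With Xist as a covariate, the knockout effect therefore rests mainly on knockout 1 against the controls, here and below. The epithelial marker Epcam was high in every embryo (390 to 502 CPM in knockouts, 269 to 536 CPM in controls). Mesenchymal RNA was present too, with 8 markers summing to 2285 to 2608 CPM in knockouts and 1224 to 2490 CPM in controls.

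Esrp1 itself (chromosome 4, 11331933 to 11386783, minus strand, mm10) had 27.2, 34.3 and 39.1 CPM in knockouts 1, 2 and 3, against 197, 102 and 118 CPM in controls 1, 2 and 3. The groups were well apart, and knockouts retained 24.1% of the control level over the counted transcript. It fell by 2.05 ± 0.26 on the log2 scale (SE, adjusted p = 0.0354, edgeR). The adjusted p was 0.146, 0.158 and 0.124 without knockout 1, 2 or 3 and 0.122 without control 3, at log2 fold changes of -2.18 to -1.93. With Xist as a covariate it was 0.0806, at -2.36. Fewer cells of a type and less RNA per cell cannot be told apart in this and the following values, which come from whole tissue.

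None of the 10 flanking genes passed the threshold in edgeR, in which 0.0679% of all genes tested were called lower and 0.0815% higher in knockouts. At an unadjusted p under 0.05 stood 1 gene, Calb1, where 4.77% of all genes did. DESeq2 also called 1 gene, again Calb1, and called 1.07% of all genes it tested. An FDR under 0.05 in the authors' deposited table was likewise held by Calb1 alone, and by 1.02% of all genes tested. Groups that did not overlap were seen for 1 of the 10, Calb1, against 9.84% of all genes tested, 4.44% with the knockouts lower. A share of 1 in 10 is thus near the background for groups that do not overlap. Of the 10 genes, 4 had positive and 6 negative log2 fold changes, with a median of -0.05 beside 0.00 over all genes. The other 9 genes lay between -0.55 and 0.40, with unadjusted p-values of 0.225 to 0.909 and adjusted p = 0.994 for each (edgeR's quasi-likelihood test).

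**Figure D1:**
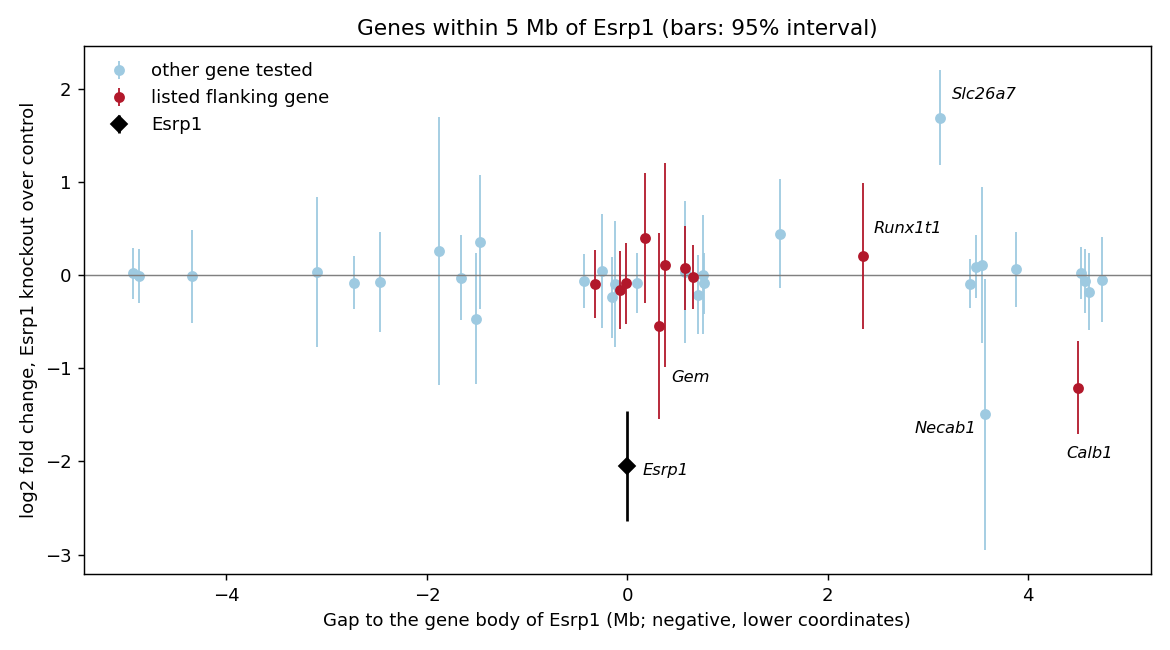
Log2 fold change of knockout over control for the genes tested within 5 Mb of Esrp1, against their gap to its gene body in Mb, with bars for the 95% interval. Esrp1 stands at -2.05, the genes around it lie near 0, and the far points are Slc26a7 at 1.69, Necab1 at -1.50 and Calb1 at -1.21.

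The nearest gene in the table was Dpy19l4 (11261315 to 11322138, minus strand), 9795 bases from Esrp1. Its product belongs to a protein family that includes enzymes attaching mannose to tryptophan. Dpy19l4 had 31.7, 48.0 and 49.4 CPM in knockouts 1, 2 and 3, against 41.3, 43.4 and 52.8 CPM in controls 1, 2 and 3. The ranges overlapped, with knockout 1 lowest and control 3 highest. The log2 fold change was -0.09 ± 0.19 (interval -0.52 to 0.34). With Xist as a covariate it was -0.56, a value that rests mainly on knockout 1, the lowest embryo. The neighbour on the other side, named 1110037F02Rik in the table and Virma in RefSeq, encodes a subunit of the RNA adenosine methylation complex and lies 99.2 kb away. It averaged 145 ± 21.2 CPM in knockouts and 153 ± 6.54 CPM in controls, with a log2 fold change of -0.08 (interval -0.40 to 0.24).

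Next to Dpy19l4 lies Ints8 (11199158 to 11254265, minus strand), a subunit of the Integrator complex that cleaves small nuclear RNAs and attenuates transcription. Ints8 had 58.2, 91.3 and 73.1 CPM in knockouts, against 69.9, 88.6 and 90.9 CPM in controls. Knockout 2 was the highest of all 6 embryos and knockout 1 the lowest. The log2 fold change was -0.16 ± 0.18 (interval -0.58 to 0.26), and -0.54 with Xist as a covariate (adjusted p = 0.189, edgeR). Ints8 overlaps Ccne2, the cyclin E2 gene on the opposite strand, by 5622 bases, and the library kit was directional, but whether reads were counted by strand is not given in the sources used here. Ccne2 had a log2 fold change of -0.09 (interval -0.77 to 0.58). Farther out, Plekhf2 (10988662 to 11007619, minus strand), an endosomal lipid-binding protein, had 31.3, 31.4 and 37.6 CPM in knockouts and 42.3, 30.4 and 34.7 CPM in controls. Control 1 was the highest, the remaining 5 embryos lay between 30.4 and 37.6 CPM, and the log2 fold change was -0.10 ± 0.16 (interval -0.46 to 0.27).

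Beyond Virma follow genes of DNA repair, calcium channel control and cell adhesion, all at low levels. Rad54b (11558920 to 11615808, plus strand), which acts in repair by homologous recombination, had 7.85, 11.7 and 10.5 CPM in knockouts, against 4.51, 9.62 and 8.62 CPM in controls. Control 1 was lowest, and knockout 1 was below the other controls, so the groups overlapped. The log2 fold change of 0.40 ± 0.31 was the largest positive one among the 10 genes, and its interval ran from -0.30 to 1.10. It was 0.0072 with Xist as a covariate and 0.14 without control 1.

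Gem (11704447 to 11714993, plus strand) encodes a small GTPase that restrains voltage-gated calcium channels and is known as an early-response gene. It had 2.36, 4.19 and 6.01 CPM in knockouts 1, 2 and 3, against 8.71, 3.22 and 6.57 CPM in controls 1, 2 and 3. Control 1, the embryo with the highest immediate early sum, was the highest for Gem, and knockout 1, with the second-highest sum, was the lowest. The part of the immediate early response in the Gem values was not tested. The log2 fold change was -0.55 ± 0.44 with an interval of -1.54 to 0.45, too wide to place Gem within 2-fold of control. Without control 1 the value was -0.22, without control 2 it was -0.86, and with Xist as a covariate it was -1.41 (adjusted p = 0.261, edgeR). Cdh17 (11758157 to 11817905, plus strand), a cadherin best known from intestine, was barely detected, with 220 reads over the 6 embryos. It had 2.21, 2.09 and 2.34 CPM in knockouts and 0.94, 1.59 and 3.61 CPM in controls, so the knockouts lay close together inside the spread of the controls. Its log2 fold change was 0.11 ± 0.48 (interval -0.99 to 1.21). Of the intestinal markers, Cdx2 had no read in any embryo, Vil1 stayed under 0.5 CPM and Cdx1 under 0.1 CPM. The remaining one, Lgals4, had 0.40 to 1.91 CPM in knockouts and 1.18 to 2.44 CPM in controls, near the level of Cdh17, and the part of such cells in the Cdh17 values was not tested.

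Farther along lie a metabolic and a ciliary gene. Pdp1 (11958183 to 11966450, minus strand), the phosphatase subunit that switches on pyruvate dehydrogenase, had 27.2, 26.4 and 27.8 CPM in knockouts, against 18.1, 30.3 and 28.7 CPM in controls. Control 1 was low and the other 5 embryos were alike, which gave a log2 fold change of 0.08 ± 0.20 (interval -0.38 to 0.53). Tmem67 (12039355 to 12090020, minus strand) encodes meckelin, a membrane protein of the ciliary transition zone. It had 16.3, 20.1 and 19.1 CPM in knockouts, against 19.2, 18.6 and 18.5 CPM in controls. The controls were nearly equal and lay inside the spread of the knockouts. Its log2 fold change was -0.02 ± 0.15 (interval -0.36 to 0.33), and 7.01% of all genes tested had a smaller change. Tmem67 shares 651 bases with C430048L16Rik (Rbm12b2 in RefSeq) on the opposite strand, which had a log2 fold change of -0.21.

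**Figure D2:**
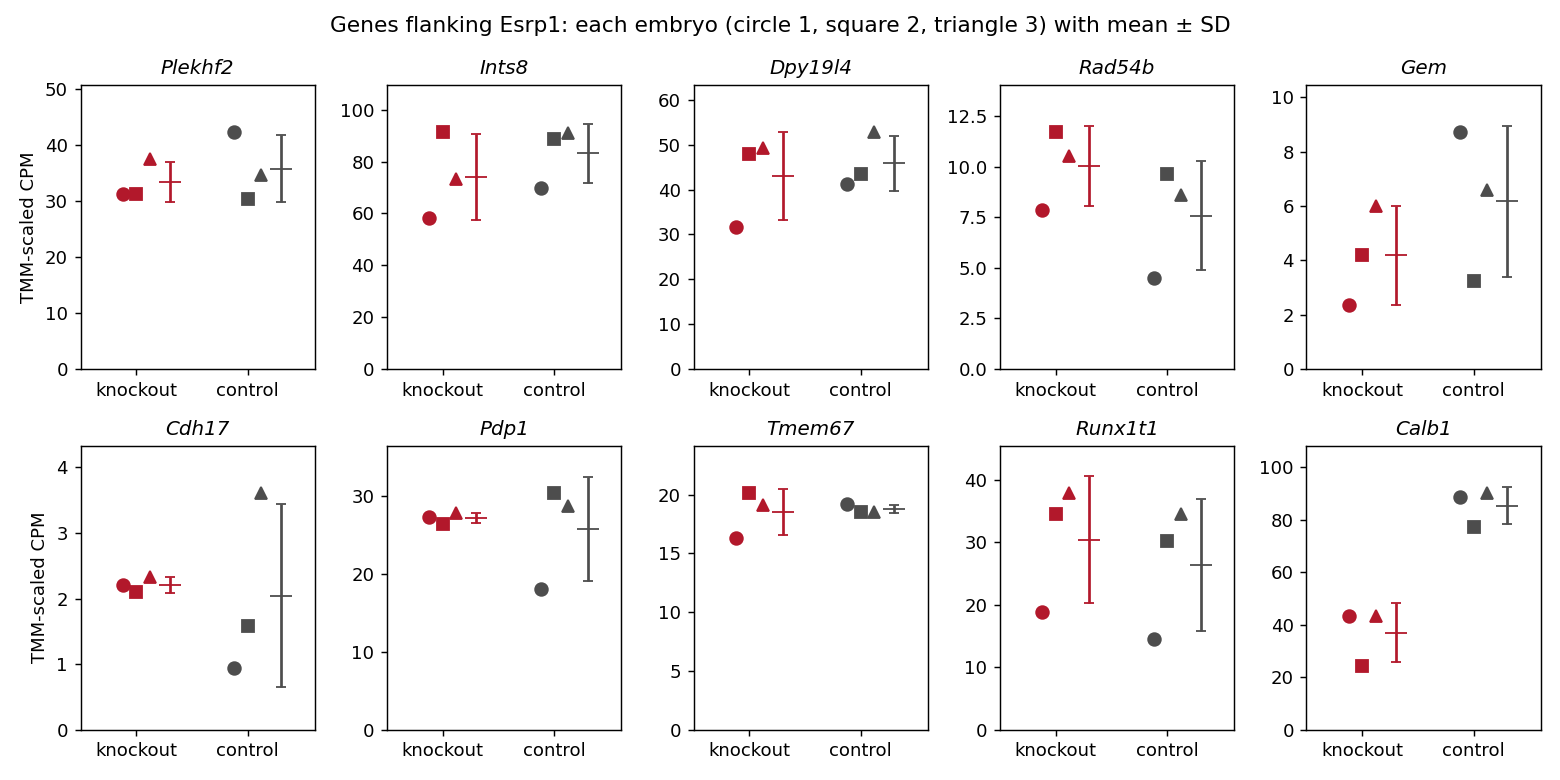
TMM-scaled CPM of each flanking gene in each embryo, knockout left of control, with mean ± SD beside the points and axes from 0. Only for Calb1 do all 3 knockout points (24.2 to 43.4 CPM) lie below all 3 control points (77.3 to 90.2 CPM).

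Runx1t1 (13742628 to 13895056, plus strand), a transcriptional corepressor that works with histone deacetylases, lies 2.36 Mb from Esrp1. It had 18.9, 34.5 and 37.9 CPM in knockouts 1, 2 and 3, against 14.5, 30.3 and 34.5 CPM in controls 1, 2 and 3. The embryos numbered 1 of both groups were low and the others were alike, so that the spread within each group exceeded the difference between them. The log2 fold change was 0.20 ± 0.34 (interval -0.58 to 0.99). All 3 transcript rows of the gene gave nearly the same reads, 2997, 2994 and 2974 over the 6 embryos, so its isoforms cannot be compared from these rows.

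Calb1 encodes calbindin, a cytosolic protein that buffers calcium through EF-hand domains and is widely used as a marker of sensory cells and neurons. It lies farthest from Esrp1, at 4.49 Mb (15881264 to 15906709, plus strand). Calb1 had 43.4, 24.2 and 43.4 CPM in knockouts 1, 2 and 3, against 88.8, 77.3 and 90.2 CPM in controls 1, 2 and 3. Every knockout was below every control, and knockout 2 was the lowest. Knockouts averaged 37.0 ± 11.1 CPM and controls 85.4 ± 7.11 CPM (SD, n = 3 each), so that knockouts had 43.3% of the control level. The log2 fold change was -1.21 ± 0.22, with an interval of -1.71 to -0.71.

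In edgeR the Calb1 difference had an unadjusted p = 0.000441, rank 47 of all genes tested, and an adjusted p = 0.132, which misses the threshold. DESeq2 gave -1.23 with an adjusted p = 6.30e-05, a call that 0.390% of genes received in that direction. In the authors' deposited table the log2 fold change was -1.32 with an FDR of 1.69e-06, where 0.455% of genes had an FDR under 0.05 and were lower. Permuting the embryos of both groups exactly gave a two-sided p = 0.10, below which a design of this size cannot go. With each embryo left out in turn, edgeR's log2 fold change stayed between -1.35 and -0.98, and the adjusted p between 0.158 and 0.437. Without both embryos numbered 1 it was -1.33 with an adjusted p = 0.0479. In that fit the knockouts are those with Kdm5d and the controls have Xist, so that sex and genotype cannot be told apart. With Xist as a covariate the log2 fold change was -0.95 with an interval of -1.74 to -0.17. That value rests mainly on knockout 1 against the controls, so it does not separate sex from genotype over the whole knockout group.

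**Figure D3:**
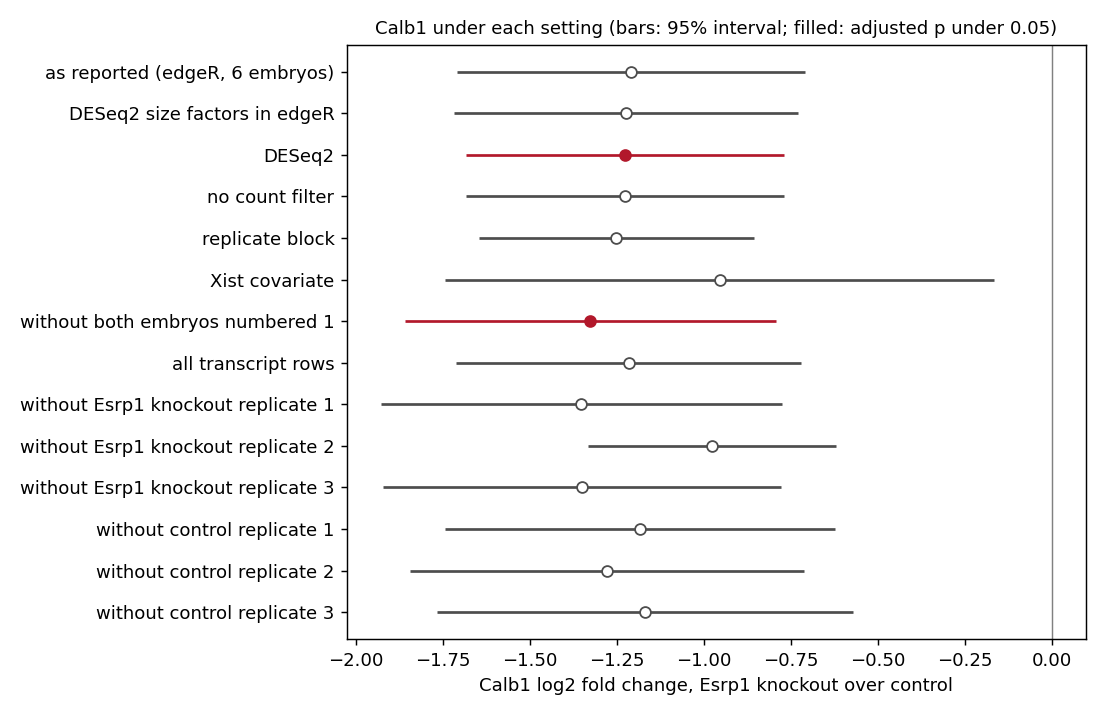
Calb1 log2 fold change of knockout over control under each setting, with 95% intervals; filled points passed an adjusted p of 0.05. All 14 estimates lie between -1.35 and -0.95, and the filled ones are DESeq2 and the fit without both embryos numbered 1.

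Lists of cell type markers were looked at beside Calb1. The 7 hair cell markers in the table summed to 257 to 307 CPM in knockouts and 299 to 343 CPM in controls, with most of the sum from Myo6, and 0 called. The 4 lower were Atoh1 (-0.53), Pou4f3 (-0.83), Myo6 (-0.27) and Myo7a (-0.35). The 3 higher were Pvalb (0.18), Gfi1 (0.39) and Lhx3 (0.75). Gfi1 and Lhx3 were highest in knockout 1, at 11.3 and 5.72 CPM, and knockouts 2 and 3 were below every control for Gfi1 and for Lhx3. The 9 neuronal markers summed to 583 to 777 CPM in knockouts and 118 to 1052 CPM in controls, lowest in control 1 and highest in control 2, with 0 of 9 called. Calb1 was 88.8 CPM in control 1 and 77.3 CPM in control 2. The 4 choroid plexus markers summed to 94.3 to 225 CPM in knockouts and 38.5 to 72.8 CPM in controls, and Kl and Folr1 stayed under 2 CPM. The 2 markers tested, Ttr and Otx2, had positive log2 fold changes of 2.29 and 1.01 with adjusted p-values of 0.533 and 0.494 (edgeR), and Ttr was at 146 CPM in knockout 1. The 9 markers of cochlear epithelium summed to 9767 to 12372 CPM in knockouts and 4349 to 8921 CPM in controls, with most of the sum from Oc90, an otoconial protein gene, and 0 called. Melanocyte markers summed to 62.2 to 132 CPM in knockouts and 115 to 201 CPM in controls, with 5 of 5 negative and 0 called. The part of these sums in the Calb1 values was not tested.

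The tested genes next to Calb1 had log2 fold changes near 0. Decr1, a mitochondrial fatty acid enzyme gene less than 0.1 Mb beyond Calb1, had 51.5, 48.4 and 49.6 CPM in knockouts and 52.0, 44.3 and 51.4 CPM in controls (log2 fold change 0.02, interval -0.26 to 0.30). Tmem64, a membrane protein gene on the side toward Esrp1, had a log2 fold change of 0.06 (interval -0.34 to 0.47). Nbn, a DNA break sensor gene past Decr1, had -0.06 (interval -0.41 to 0.28).

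Levels per transcript length were compared through the authors' FPKM. Calb1 had 5.92 ± 1.83 FPKM in knockouts and 13.3 ± 0.996 FPKM in controls, where it was the highest of the 10 genes. Ints8 followed with 6.57 ± 1.40 FPKM in knockouts and 7.30 ± 1.48 FPKM in controls, then Dpy19l4 and Plekhf2. The ranges of Calb1 and Ints8 overlapped in knockouts and did not overlap in controls. Ints8, Dpy19l4 and Plekhf2 overlapped each with the next in both groups. Plekhf2 was above Pdp1 without overlap in either group. Pdp1, Tmem67, Runx1t1, Gem and Rad54b, with means of 0.83 to 2.67 FPKM in knockouts and 1.18 to 2.51 FPKM in controls, overlapped each with the next in controls. Cdh17 was last, at 0.29 ± 0.02 FPKM in knockouts and 0.27 ± 0.18 FPKM in controls.

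**Figure D4:**
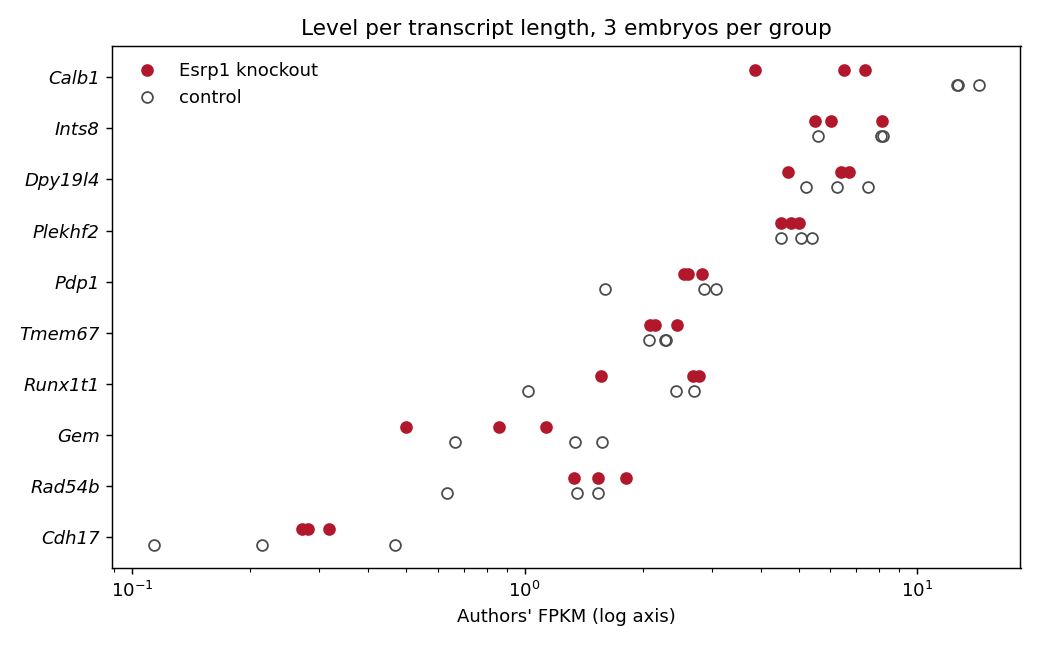
The authors' FPKM of each flanking gene in each embryo on a log axis, filled for knockout and open for control, ordered by the control mean. Calb1 lies among Ints8 and Dpy19l4 in knockouts at 3.86 to 7.36 FPKM and above them in controls at 12.7 to 14.4 FPKM.

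The embryos numbered 1 differed from the rest in several flanking genes, as in many of all genes tested. In both knockout 1 and control 1, Dpy19l4, Ints8, Rad54b and Runx1t1 were below all other 4 embryos, which is 4 of 10 genes. This holds for 15.9% of all genes tested, and another 14.3% had both embryos above the other 4. Such a separation was thus common over all genes, and the 4 genes do not set the flanking genes apart. For Runx1t1 knockout 1 had 18.9 CPM and control 1 had 14.5 CPM, and the other 4 embryos had 30.3 to 37.9 CPM. Same-numbered embryos of the groups share a prefix in the labels, and what it stands for is not stated. As 1 such embryo is in each group, the difference adds to the spread within both.

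**Figure D5:**
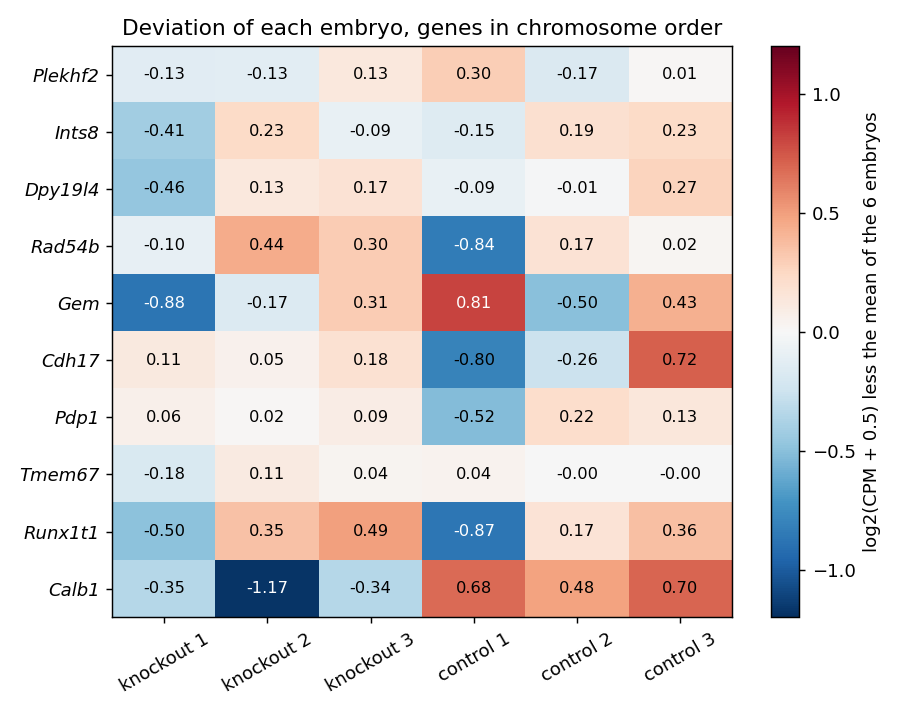
Colour and printed value give log2(CPM + 0.5) in each embryo after subtracting the gene's average, with the flanking genes down the page in chromosome order and knockouts left of controls. Knockout 1 and control 1 are both below 0 for Ints8, Dpy19l4, Rad54b and Runx1t1, and Calb1 is negative in all knockouts and positive in all controls.

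The listed genes were then set among all genes around Esrp1. Within 1 Mb the table held 20 other genes, 3 of them without a read, and 17 were tested, 8 of which are listed here. None of the 17 was called by edgeR or DESeq2, which called 0.149% and 1.07% of all genes each tested. In edgeR 0 of the 17 had an unadjusted p under 0.05, against 4.77% of all genes tested. With shares this small, counts of 0 among 17 genes do not set the neighbourhood apart from the background. Their log2 fold changes ran from -0.55 to 0.40, with 6 positive, 11 negative and a median of -0.08. All 17 lay within 1.5-fold of control, as did 92.9% of all genes tested. For 14 of the 17 the interval lay inside a 2-fold change in either direction, as for 79.0% of all genes tested. The remaining 3 were Gem, Cdh17 and Rad54b.

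Within 5 Mb 40 genes were tested, with 17 positive, 23 negative and a median of -0.02. An unadjusted p under 0.05 (edgeR) was held by 3 of the 40, against 4.77% of all genes tested. Groups did not overlap for 3 of the 40, against 9.84% of all genes tested. Past edgeR's threshold stood 1 of the 40, against 0.149% of all genes tested. This was Slc26a7, an anion exchanger gene 3.12 Mb from Esrp1, between Runx1t1 and Calb1. It had 60.1, 74.1 and 100.3 CPM in knockouts, against 28.4, 18.8 and 25.7 CPM in controls, and rose by 1.69 ± 0.22 on the log2 scale (adjusted p = 0.0354). The call was lost without knockout 1, 2 or 3 (adjusted p = 0.0618, 0.154 and 0.124) and without control 2 or 3 (0.103 and 0.206), at 1.47 to 1.84, and with Xist as a covariate (0.0806, at 1.29). The next tested genes beyond it, Otud6b (-0.09) and Tmem55a (0.09), had intervals of -0.35 to 0.17 and of -0.25 to 0.42. Necab1, which encodes a neuronal calcium-binding protein with EF-hands, had an unadjusted p = 0.0455 and an adjusted p = 0.994 (edgeR). It had 1.91, 1.88 and 1.53 CPM in knockouts, against 1.44, 10.3 and 3.13 CPM in controls. Its log2 fold change of -1.50 rested on control 2 and was -0.37 without it. Control 2 was also the embryo with the highest neuronal sum, and the part of neurons in the Necab1 values was not tested.

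Calls were few over chromosome 4 as a whole, as over all genes tested, of which 0.0815% were called higher and 0.0679% lower in knockouts. Of 920 other chromosome 4 genes tested, 1 rose (Slc26a7) and 1 fell (Bsnd, a chloride channel subunit gene more than 20 Mb away). The median size of the log2 fold change was 0.09 within 1 Mb, 0.09 within 5 Mb, 0.12 within 20 Mb and 0.13 over the rest of the chromosome, and 0.13 over the other chromosomes. Genes differ in read number between these sets, so these medians are a description, and their differences were not tested.

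For each flanking gene the table was searched for the gene whose 6 embryo values were most alike, by the root mean square difference of log2 levels from the gene's own mean, among 14094 genes with at least 1 CPM. For Dpy19l4 this was Impad1, also on chromosome 4, at a difference of 0.02, and for Tmem67 it was E2f6 on chromosome 12 at 0.02. Runx1t1 was most like Foxp2 on chromosome 6 (0.08), and Calb1 most like Grpr on chromosome X (0.15), which had a log2 fold change of -1.47 and an adjusted p = 0.515. The other matches were Nqo2 for Ints8, Cldn12 for Plekhf2, Rxfp3 for Rad54b, Zdhhc23 for Gem, Mkx for Cdh17 and Gng2 for Pdp1, at 0.03 to 0.13. None of the 10 genes was most like Esrp1 or another gene of the list. With 14094 genes to choose from, such a match was unlikely in any case, so its absence does not tell whether neighbours moved together. These likenesses over 6 embryos are a description.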

How the data were processed

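The authors deposited reads per RefSeq transcript as counts, 1 column per embryo, per the file headers; the values are whole numbers with totals that differ between embryos, as raw counts are. They also deposited FPKM per embryo and, per the file headers, a comparison of knockout with control giving log2 fold changes with p-value and FDR over transcript rows. Tools and builds listed without a role in the submitters' processing notes are edgeR and mm10. Neither aligner nor counter is named in what was read here. Another 13 value columns were left aside.

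The table held 28644 rows for 22869 gene symbols. Positions came from RefSeq on GRCm38, the assembly of mm10, and strands from GENCODE. Distance is the gap between gene bodies. Genes were kept with filterByExpr (minimum count 10), scaled by TMM and tested with edgeR 4.0.16 under R 4.3.3. Dividing the log2 fold change by the root of the F statistic gave standard errors, and 95% intervals use the test's degrees of freedom. DESeq2 1.42.0 was an alternative, as were size factors, no count filter, a replicate block, Xist as a covariate, all transcript rows, and embryos left out. On counts simulated from these embryos over 14592 genes, 74 of 100 genes changed 2-fold and 99 of 100 changed 4-fold were recovered, with 14 false calls (changed genes had at least 5 CPM). The Benjamini-Hochberg adjustment is easier to pass where more genes change, and the real data had 22 genes called. The simulated embryos were drawn independently, without a sex difference and without a shared shift of the embryos numbered 1. Recovery in the simulation can therefore overstate recovery in the real comparison. Replicates are separate embryos. The flanking genes and lists were chosen with earlier results of these data known. Named genes are the 10 listed, Esrp1, its adjacent genes, those within 5 Mb past a threshold, and the closest match of each, while Ccne2, Rbm12b2, Otud6b, Tmem55a, Necab1, Tmem64, Decr1, Nbn and Bsnd were added after their values were seen.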

Additional observations from a re-analysis of the deposited data

How the results depend on the processing

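Of 13 alternatives, 11 gave 0 flanking genes called, while DESeq2 and the fit without both embryos numbered 1 gave 1 each, Calb1. Over 5 Mb the count of 1 became 2 in DESeq2, 3 without both embryos numbered 1, 0 with Xist as a covariate or the replicate block, 0 to 1 with single embryos left out, and 0 in windows of 1 or 2 Mb. The chromosome 4 count of 2 became 11 in DESeq2, 12 without both embryos numbered 1, 0 with Xist or the block, and 0 to 2 with single embryos left out. Esrp1 had -2.36 with Xist (adjusted p = 0.0806) and -2.23 to -1.71 with single embryos left out. The block on embryo numbers gave Esrp1 -2.0 (adjusted p = 0.134) and 6 genes called in place of 22 over all genes. That count was 6 with Xist, 167 in DESeq2, 159 without both embryos numbered 1, 31 with no count filter, 12, 0 and 4 without knockout 1, 2 or 3, and 30, 13 and 0 without control 1, 2 or 3. The Slc26a7 call was lost under the block too (1.68, adjusted p = 0.109). Same-numbered embryos deviated together by correlations of 0.08, 0.18 and 0.03, not all above the 0.1 set for pairing. Knockouts 1 and 2 correlated best with the control of their own number and knockout 3 with control 1, so no pairing was assumed, and a shared source of same-numbered embryos was not tested.

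Without both embryos numbered 1 the sign turned for Dpy19l4 (0.0099), Plekhf2 (0.071), Gem (0.052), Cdh17 (-0.23), Pdp1 (-0.13) and Tmem67 (0.072), and with Xist for Runx1t1 (-0.54). With single embryos left out, values crossed 0 for Dpy19l4 (-0.20 to 0.078), Plekhf2 (-0.20 to 0.036), Cdh17 (-0.23 to 0.79), Pdp1 (-0.12 to 0.21), Tmem67 (-0.084 to 0.056) and Runx1t1 (-0.088 to 0.44). The cause was not tested. The sign stayed the same under all 13 for Calb1 (-1.35 to -0.95), Ints8 (-0.54 to -0.024) and Rad54b (0.0072 to 0.61). Gem and Cdh17 had the fewest reads of the 10 genes, 531 and 220 over the 6 embryos, and the largest standard errors.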
